A study of Mus musculus with 9 samples.

Results

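The peroxisome is a membrane-bound organelle in which chains that mitochondria handle poorly are shortened and ether lipids are begun. It has no DNA, so all of its proteins are encoded in the nucleus and imported after synthesis. Peroxins (PEX proteins) build the organelle. Pex5 and Pex7 are the soluble receptors that recognise cargo, Pex13 and Pex14 dock them at the membrane, Pex2 and Pex10 are RING ubiquitin ligases that mark the receptors for recycling, and Pex6, held by Pex26, extracts them. Pex3, Pex16 and Pex19 insert membrane proteins, and Pex11a takes part in elongation and division. The lipid enzymes inside carry out the β-oxidation of very long and branched chains, the α-oxidation of phytanic acid and the opening steps of ether lipid (plasmalogen) synthesis, and ABC transporters bring acyl-CoA across the membrane.

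The expression of 28 such genes, 12 peroxins and 16 lipid enzymes and transporters, was followed among the 16509 genes of the deposited table. The 28 were chosen by gene symbol, from a theme proposed with the expression differences between the same libraries in view. Their differences between groups are therefore given as a description, with no test, and nothing is supported by them. MC38, a mouse colon carcinoma line, was sequenced as poly(A)-selected RNA in 9 libraries. There were 3 libraries each of control cells (Ctrl; DMSO in the sample labels, PBS in the study's text), of cells given Cu-Cys, which is copper chloride with cystine, and of cells given Cadict, a nanoparticle of copper and cystine that also holds glucose oxidase (GOx) and the EGFR-binding peptide GE11. Cadict thus differs from Cu-Cys by more than a single component, and no library with GOx or the nanoparticle alone was analysed here. Dose and time for these libraries were not given in the sources used here. The study's text says that its in vitro experiments were repeated independently, but the labels do not tie each library to a separate culture. If the libraries came from 1 culture, p-values measure only the spread between these samples, which may be technical.

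Each library held 17905769 to 18293060 counts. Levels are given as CPM, counts per library size after edgeR's TMM scaling, and 3 counts, the limit that a count of 0 allows, came to 0.130 to 0.262 CPM (counting error only). The TMM factors were 1.26 to 1.27 in Ctrl, 1.21 in Cu-Cys and 0.640 to 0.665 in Cadict libraries. With library totals in place of TMM, the typical gene among the 11949 tested shifted by -0.95 on the log2 scale (median, Cadict against Ctrl) and by -0.88 when Cadict was set against Cu-Cys. Cadict replicate 2 stood apart, with a chi-square per degree of freedom of 14.2 and 22.4 against its partners, which differed from each other by 3.55. The line's labelled origin was set against 8 colon epithelial markers, of which 7 were in the table and 2 passed the filter. Epcam had 0 counts in 8 of 9 libraries, and Krt18, Vil1 and Cdx1 had at most 5 counts in any. Of 6 fibroblast and endothelial markers, 5 were tested. Their summed TPM (transcript abundance, a level per length) was 195 to 219 in Ctrl, 85.1 to 89.4 in Cu-Cys and 12.9 to 16.2 in Cadict libraries, and 4 of the 5 were called lower in each treated group. Summed colon epithelial TPM was 4.22 to 6.24, 3.5 to 3.96 and 11.5 to 13.2 in the same order. The 2 tested colon epithelial markers were both called higher in Cadict against Ctrl (log2 fold changes 1.39 and 3.34). In Cu-Cys against Ctrl, 1 of the 2 was called lower (all at an adjusted p up to 0.05). At that threshold 40.6% of all tested genes were called higher and 47.1% lower in Cadict against Ctrl. In Cu-Cys against Ctrl the shares were 22.6% and 22.4%. Leukocyte markers (4 of 6 in the table, none tested) summed to 0.04 to 0.09 TPM in each library. The fibroblast and endothelial sum fell along with the summed TPM of the 28 genes, whereas the colon epithelial sum was higher in Cadict libraries. The part of these markers in the differences was not tested. In bulk RNA, fewer cells of a type and less RNA per cell cannot be told apart.

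In Cadict-treated cells most lipid enzymes and part of the import machinery were lower than in Ctrl cells, while Pex14 and Pecr were higher with TMM scaling. On the TPM scale both had log2 fold changes below 0 (-0.13 and -0.42), and Pecr was also below 0 by library totals (-0.13). Of the 28 genes 27 passed the filter on low counts. Ehhadh, a bifunctional β-oxidation enzyme, did not: it had 10, 8 and 9 counts in Ctrl, 4, 11 and 7 in Cu-Cys and 1, 2 and 2 in Cadict libraries. The study's threshold was an adjusted p of 0.001 or less together with a 2-fold change or more, here by edgeR's quasi-likelihood test. Set against Ctrl, Cadict libraries had 1 of the 27 above and 12 below at that threshold. Of all tested genes, 20.7% were called higher and 27.1% lower. With an adjusted p up to 0.05 as the only threshold, the counts were 4 higher and 19 lower, beside 40.6% and 47.1% of all tested genes. Scaled by library totals, the split at 0.05 was 1 higher and 25 lower. The median log2 fold change over all tested genes was then -1.08, and the shares called under that scaling are not given here. The groups did not overlap for 22 genes, of which 4 were higher and 18 lower (40.3% and 47.3% of all tested genes). Since the genes were selected on these contrasts, no more is read from the counts. Without Cadict replicate 2 the counts were again 1 and 12 at the study's threshold, and 4 and 19 at 0.05.

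**Figure D1:**
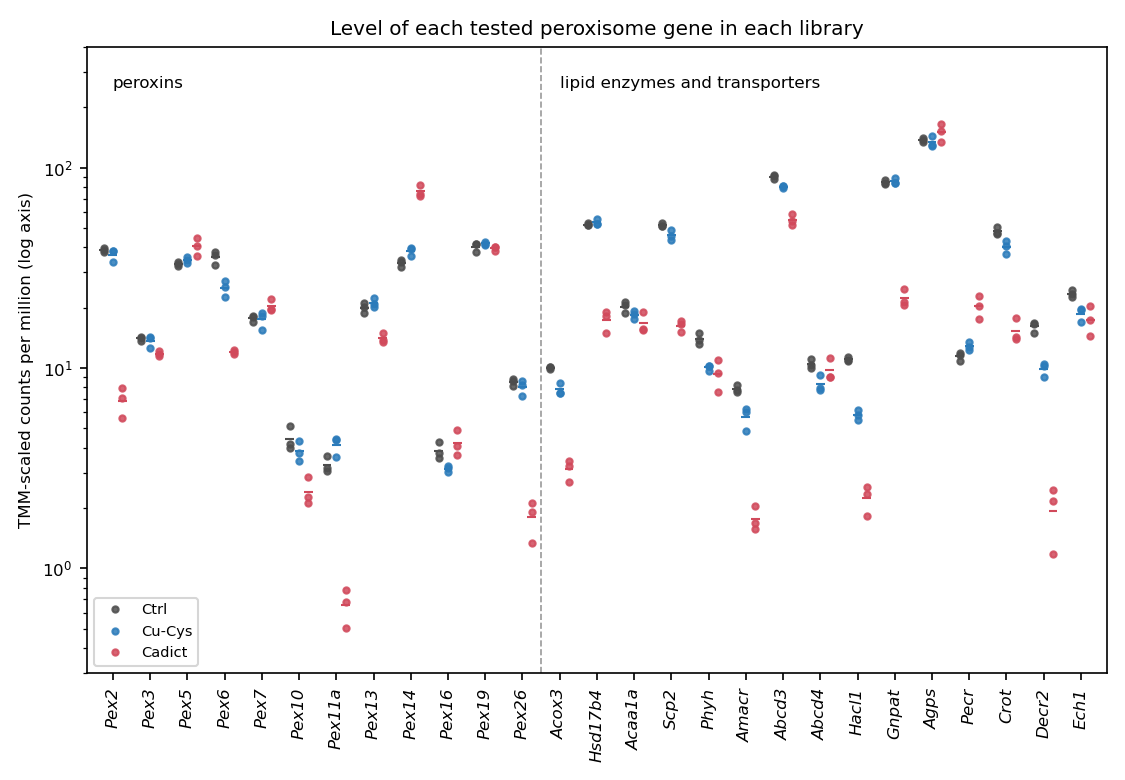
TMM-scaled CPM (log axis) of the 27 tested genes in each of the 9 libraries; points are libraries and short bars are group means. Decr2, Pex2 and Gnpat in Cadict libraries lie below all other libraries, Pex14 lies above them on this scale (but not in TPM), and Pex19 and Agps overlap between Cadict and Ctrl.

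The lower side held 4 of 12 peroxins and 8 of 15 tested lipid genes at the study's threshold, and the higher side held 1 peroxin and 0 lipid genes. For Cadict set against Ctrl, the peroxins had a median log2 fold change of -0.38 and the lipid genes one of -1.58, beside -0.13 over all tested genes. Relative to that all-gene median, the peroxin median was -0.25 with TMM, with DESeq2's size factors it was -0.25 as well, and on the TPM scale it was -0.36. The lipid median relative to all genes was -1.45 with TMM and -0.81 on the TPM scale. In Cu-Cys against Ctrl the medians were -0.03 and -0.26, and in Cadict against Cu-Cys they were -0.40 and -1.32. Over 6 scalings, 5 genes lay above the all-gene median in Cadict against Ctrl in each (Pex5, Pex7, Pex14, Pex16 and Pecr), 19 lay below it in each, and Pex19, Abcd4 and Agps changed sides.

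**Figure D2:**
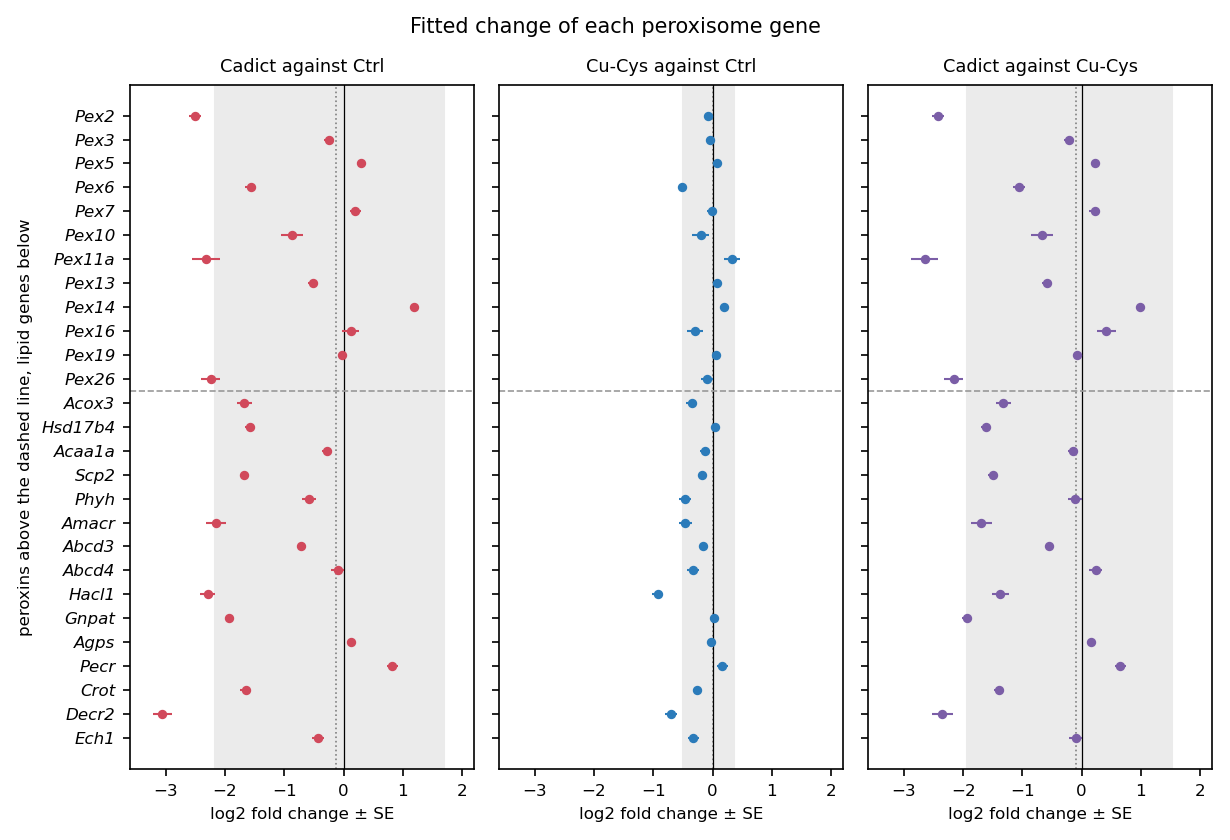
Fitted log2 fold change with its standard error for each tested gene in the 3 comparisons; the grey band spans the 10th to 90th percentile and the dotted line the median of all tested genes. In Cadict against Ctrl, Decr2 (-3.06) and Pex2 (-2.50) lie left of the band, while Pex14 (1.18) lies to the right of 0 with TMM and at -0.13 on the TPM scale.

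The receptors and the docking complex did not move as a unit. Pex5, the receptor for the C-terminal targeting signal, measured 32.4, 33.7 and 32.9 CPM in Ctrl, 35.9, 33.5 and 34.6 in Cu-Cys and 44.7, 36.3 and 40.8 in Cadict libraries. Every Cadict library was above every Ctrl library on this scale, with a log2 fold change of 0.30 ± 0.07 (SE, n = 3 per group), which was -0.65 when scaled by library totals. Pex7, the receptor for the N-terminal signal, stood at 17.7 ± 0.681 CPM in Ctrl (SD, n = 3) and 20.4 ± 1.52 in Cadict cells, and its log2 fold change of 0.20 ± 0.09 was likewise -0.75 by library totals. Relative to the median of all genes, both receptors were above it under each of the 6 scalings, at 0.17 to 0.42 for Pex5 and 0.08 to 0.33 for Pex7.

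Pex14 (Entrez 56273), the membrane anchor to which loaded receptors bind, measured 34.0, 34.5 and 32.1 CPM in Ctrl, 39.8, 36.4 and 39.3 in Cu-Cys and 74.2, 81.7 and 72.3 in Cadict libraries. The 3 groups did not overlap, and Cadict libraries were the highest. The fold change was 2.27 in Cadict against Ctrl (log2 1.18 ± 0.06) and 1.15 in Cu-Cys against Ctrl (log2 0.20 ± 0.06). In TPM the level was 43.5 ± 2.06 in Ctrl and 39.8 ± 1.34 in Cadict cells (SD, n = 3), a log2 difference of -0.13, on a scale where the median of all genes moved to -1.13. Annotated exons of Gm17029 on the opposite strand cover 28.3% of the Pex14 exon bases, and whether counting used strand is not given in the sources used here, so reads of the pair cannot be told apart. Pex13, its partner in the docking complex, was lower: 20.1, 18.9 and 21.1 CPM in Ctrl against 13.8, 13.4 and 14.9 in Cadict libraries, a log2 fold change of -0.51 ± 0.08. Pex13 in Cu-Cys libraries (20.8, 22.4 and 20.2 CPM) overlapped with Ctrl.

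The export side of the receptor cycle was lower in Cadict libraries in all 4 of its genes among the 28. Pex2 had 39.7, 39.0 and 38.1 CPM in Ctrl, 33.9, 38.3 and 38.2 in Cu-Cys and 7.05, 7.93 and 5.63 in Cadict libraries, 5.67-fold lower in Cadict than in Ctrl cells (log2 fold change -2.50 ± 0.10). Cu-Cys libraries overlapped with Ctrl for this gene, and Cadict libraries lay far below both. Pex10, the ligase that works beside it, was at 4.42 ± 0.601 CPM in Ctrl, 3.85 ± 0.457 in Cu-Cys and 2.42 ± 0.387 in Cadict cells (SD, n = 3). Pex6, an AAA ATPase, measured 37.9, 36.7 and 32.5 CPM in Ctrl, 27.3, 22.6 and 25.4 in Cu-Cys and 11.8, 12.0 and 12.3 in Cadict libraries. Of the 12 peroxins, Pex6 was the only one called lower at 0.05 in Cu-Cys against Ctrl (log2 fold change -0.51 ± 0.08), and its 3 groups were ordered without overlap. Pex26, its membrane anchor, was at 8.52 ± 0.343, 8.02 ± 0.676 and 1.79 ± 0.405 CPM in Ctrl, Cu-Cys and Cadict cells, a log2 fold change of -2.24 ± 0.16 in Cadict against Ctrl.

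Among the genes of membrane protein insertion, differences with TMM were small, but by library totals Pex3, Pex16 and Pex19 were at -1.20, -0.83 and -0.98. Pex19, the chaperone of membrane proteins, had 37.9, 41.5 and 41.5 CPM in Ctrl and 40.3, 40.0 and 38.3 in Cadict libraries, with a log2 fold change of -0.03 ± 0.06, and the groups overlapped. Pex3, which receives Pex19 at the membrane, was at 14.0 ± 0.286 CPM in Ctrl and 11.8 ± 0.294 in Cadict cells (log2 fold change -0.25 ± 0.08). Pex16 (3.58 to 4.28 CPM in Ctrl, 3.69 to 4.88 in Cadict libraries) overlapped too. Pex11a, the division gene, had the lowest TPM of the 12 peroxins in Ctrl cells (3.59 ± 0.384). It measured 3.63, 3.07 and 3.18 CPM in Ctrl, 4.38, 4.44 and 3.6 in Cu-Cys and 0.680, 0.784 and 0.504 in Cadict libraries. Its log2 fold change of -2.32 ± 0.24 in Cadict against Ctrl rested on as few as 6 counts in a Cadict library.

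The β-oxidation spiral was lower in Cadict cells at its oxidase, its hydratase and a thiolase, whereas the other thiolase differed little. Acox3, which oxidises branched chains in the opening step, had 10.1, 9.87 and 10.1 CPM in Ctrl, 7.52, 8.46 and 7.53 in Cu-Cys and 3.23, 2.70 and 3.44 in Cadict libraries. Its groups did not overlap, with log2 fold changes of -0.35 ± 0.09 for Cu-Cys and -1.68 ± 0.12 for Cadict against Ctrl. Hsd17b4, the D-bifunctional enzyme that hydrates and dehydrogenates the chain, had 51.6, 51.5 and 52.8 CPM in Ctrl, 55.6, 52.5 and 52.6 in Cu-Cys and 18.9, 15.0 and 18.2 in Cadict libraries (log2 fold change -1.58 ± 0.08 in Cadict against Ctrl). Only the Cadict libraries stood apart. Acaa1a, the straight-chain thiolase, was at 20.2 ± 1.27 CPM in Ctrl and 16.7 ± 1.97 in Cadict cells, and the groups overlapped; 17.1% of its 50-base stretches also occur in Acaa1b, which had at most 3 counts in any library. Scp2, whose longer product is the thiolase for branched chains and whose shorter product carries lipids, had 51.3, 52.7 and 51.3 CPM in Ctrl, 43.6, 45.5 and 48.9 in Cu-Cys and 16.6, 17.1 and 15.1 in Cadict libraries. Cadict differed from Ctrl by a log2 fold change of -1.67 ± 0.07; counts per gene do not separate the products, and 29.7% of its 50-base stretches also occur in the pseudogene Scp2-ps2.

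The auxiliary enzymes held both the lowest and the highest value among the lipid genes. Decr2 (Entrez 26378), a peroxisomal reductase that prepares unsaturated chains for β-oxidation, had 16.6, 16.8 and 15.0 CPM in Ctrl, 9.0, 10.5 and 10.3 in Cu-Cys and 2.46, 2.18 and 1.18 in Cadict libraries. Its 3 groups did not overlap, and it was 1.63-fold lower in Cu-Cys and 8.32-fold lower in Cadict than in Ctrl cells (log2 fold changes -0.70 ± 0.10 and -3.06 ± 0.16). Pecr, a reductase of enoyl-CoA that works in chain elongation, ran the other way, with 10.8, 11.6 and 11.9 CPM in Ctrl, 12.3, 13.5 and 12.8 in Cu-Cys and 20.5, 22.7 and 17.6 in Cadict libraries. Its log2 fold change of 0.82 ± 0.09 in Cadict against Ctrl became -0.13 by library totals and lay 0.69 to 0.95 above the all-gene median over the 6 scalings. Amacr, which turns branched acyl-CoA into the form that the oxidase accepts, was at 7.87 ± 0.316, 5.71 ± 0.753 and 1.76 ± 0.246 CPM in Ctrl, Cu-Cys and Cadict cells. Crot, which passes shortened chains to carnitine for exit, was at 48.2 ± 2.12, 40.3 ± 2.97 and 15.3 ± 2.11 CPM. Ech1, an isomerase of dienoyl-CoA, differed less, at 23.5 ± 0.937, 18.7 ± 1.58 and 17.4 ± 3.02 CPM (all SD, n = 3).

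Both α-oxidation genes were lower in both treated groups. Hacl1, the lyase that removes a carbon as formyl-CoA, had 11.3, 10.9 and 10.9 CPM in Ctrl, 5.81, 5.49 and 6.16 in Cu-Cys and 2.55, 1.83 and 2.35 in Cadict libraries. It had the largest difference of the 27 genes in Cu-Cys against Ctrl (1.90-fold lower, log2 fold change -0.92 ± 0.09), short of the study's 2-fold threshold. Annotated exons of Gm49387 on the same strand cover 33.3% of the Hacl1 exon bases, and such reads cannot be assigned to either. Phyh, the hydroxylase that precedes it, had 13.1, 13.7 and 15.0 CPM in Ctrl, 10.2, 10.3 and 9.71 in Cu-Cys and 9.43, 11 and 7.56 in Cadict libraries. For Phyh the treated groups overlapped with each other but not with Ctrl (log2 fold changes -0.47 ± 0.10 and -0.58 ± 0.11).

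Of the consecutive enzymes of ether lipid synthesis, the earlier was lower in Cadict libraries and the later overlapped with Ctrl on the TMM scale. Gnpat, which acylates dihydroxyacetone phosphate, had 83.8, 87.2 and 82.8 CPM in Ctrl, 83.9, 84.0 and 88.7 in Cu-Cys and 24.9, 21.4 and 20.6 in Cadict libraries (log2 fold change -1.93 ± 0.07 in Cadict against Ctrl). Only the Cadict libraries stood apart. Agps, which swaps the acyl group for a fatty alcohol and forms the ether bond, ranged from 134 to 140.5 CPM in Ctrl and 134 to 165 in Cadict libraries. The Agps groups overlapped, and its log2 fold change of 0.13 ± 0.07 was not called, both with TMM. By library totals it was -0.82, and in TPM the level was 41.7 ± 1.15 in Ctrl and 18.7 ± 3.65 in Cadict cells. Abcd3, which carries branched and dicarboxylic acyl-CoA into the organelle, had 87.7, 90.3 and 91.9 CPM in Ctrl, 81.4, 80.7 and 79.3 in Cu-Cys and 54.0, 51.9 and 58.8 in Cadict libraries (log2 fold change -0.71 ± 0.06 in Cadict against Ctrl). Abcd4, known mainly for cobalamin transport from lysosomes, overlapped between Ctrl and Cadict (10.5 ± 0.534 and 9.77 ± 1.27 CPM) and was lower in Cu-Cys libraries (8.28 ± 0.787).

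Pairs of genes within a library do not depend on how libraries are scaled. The pairs were chosen after their values were seen, so they are a description. The Pex14 count was 1.68 ± 0.153 times that of Pex13 in Ctrl, 1.83 ± 0.176 in Cu-Cys and 5.44 ± 0.625 in Cadict libraries (SD, n = 3). Pex5 to Pex2 was 0.849 ± 0.0279, 0.947 ± 0.0994 and 6.05 ± 1.36 in the same order. Agps to Gnpat was 1.63 ± 0.0819, 1.57 ± 0.138 and 6.80 ± 1.07. Pecr to Decr2 was 0.713 ± 0.0751, 1.3 ± 0.0633 and 11.3 ± 3.42, and its 3 groups did not overlap. Acaa1a to Scp2 was 0.391 ± 0.0205, 0.402 ± 0.0225 and 1.03 ± 0.0870.

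**Figure D3:**
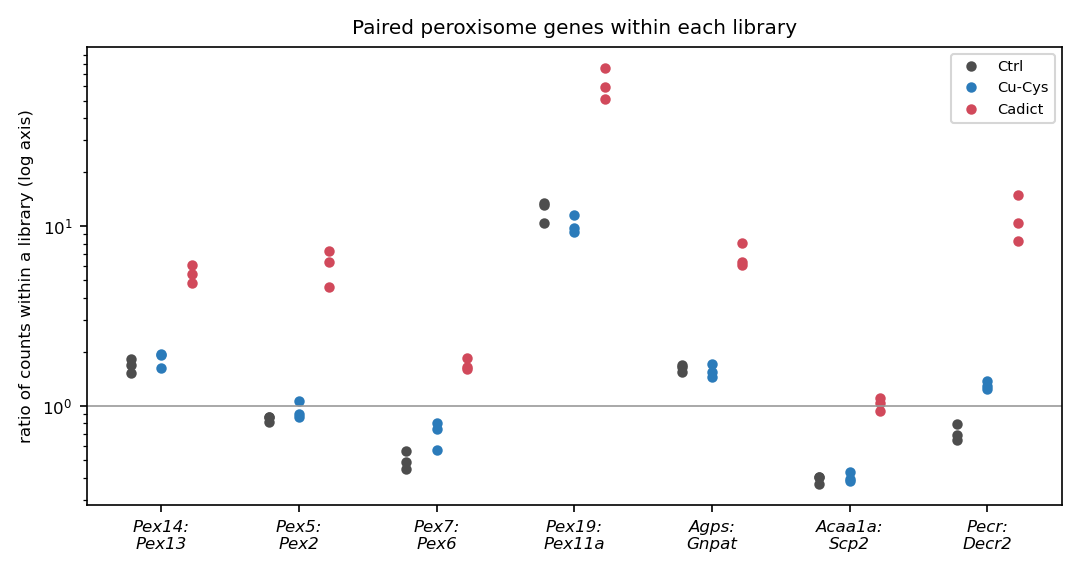
Ratio of counts of paired genes within each library (log axis; points are libraries, n = 3 per group). In each of the 7 pairs the Cadict libraries lie above all Ctrl and Cu-Cys libraries, for example 4.84 to 6.08 for Pex14 to Pex13 against 1.52 to 1.95 in the other libraries.

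Per length, the order of the genes changed. In TPM, which allows genes to be compared within a group, the highest levels in Ctrl cells were those of Gnpat (68.0 ± 2.11), Ech1 (62.1 ± 2.58) and Abcd3 (61.0 ± 0.441; SD, n = 3). Ech1 and Abcd3 did not differ beyond their spread. In Cadict cells the highest were Pex14 (39.8 ± 1.34), Pecr (21 ± 0.881) and Agps (18.7 ± 3.65), and Gnpat (7.27 ± 1.05) came 10th. Pecr and Agps did not differ beyond their spread either. Pex2 went from the 5th level in Ctrl cells (47.2 ± 1.87) to the 19th in Cadict cells (3.21 ± 0.229). The summed TPM of the 28 genes was 762 ± 10.6 in Ctrl, 636 ± 12.5 in Cu-Cys and 221 ± 13.6 in Cadict cells. The lipid genes' sum was 2.04 ± 0.0328 times that of the peroxins in Ctrl, 1.84 ± 0.0534 times in Cu-Cys and 1.26 ± 0.0270 times in Cadict libraries.

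Differences between Cu-Cys and Ctrl cells were small, and not all were in genes that were lower in Cadict cells. In Cu-Cys against Ctrl, 0 of 27 genes were called at the study's threshold in either direction, at which 0.167% of all tested genes were called higher and 1.47% lower. The DESeq2 Wald test also gave 0 in both directions, and at an unadjusted p under 0.05 edgeR gave 2 higher and 12 lower. Shares of all tested genes by DESeq2 or at an unadjusted p are not given here, so nothing is read from these counts. At 0.05, 1 was higher (Pex14) and 11 were lower, beside 22.6% and 22.4% of all tested genes. The lower genes were Pex6 and 10 of the 15 lipid genes: Acox3, Scp2, Phyh, Amacr, Abcd3, Abcd4, Hacl1, Crot, Decr2 and Ech1. The groups did not overlap for 14 genes, 2 higher and 12 lower (31.4% and 29.9% of all tested genes). The call of Pex14 in Cu-Cys cells (log2 0.20 ± 0.06) was lost without Ctrl replicate 3 or without Cu-Cys replicate 1, and none was called higher by library totals.

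In Cadict against Cu-Cys, which shares the Cadict libraries with the comparison to Ctrl, the study's threshold gave 0 higher and 12 lower, beside 18.6% and 23.6% of all tested genes. At 0.05 the counts were 6 higher and 16 lower, beside 40.3% and 45.6%. By library totals the counts were 0 and 26, where the median log2 fold change over all tested genes was -0.98. The shares of all tested genes called under that scaling are not given here. The 12 called lower at the study's threshold were the same genes as in Cadict against Ctrl: Pex2, Pex6, Pex11a, Pex26, Acox3, Hsd17b4, Scp2, Amacr, Hacl1, Gnpat, Crot and Decr2. Phyh, Ech1, Acaa1a and Abcd4 were not called in Cadict against Cu-Cys, with log2 differences of -0.11 ± 0.12, -0.10 ± 0.11, -0.15 ± 0.09 and 0.24 ± 0.11. Pex14 missed the 2-fold threshold in this comparison (1.98-fold, log2 0.98 ± 0.06), and it was called there with DESeq2 (log2 1.05) and in edgeR without Cu-Cys replicate 1 or without Cadict replicate 3.

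Other peroxisomal genes were read from a list of 53, of which 50 were in the table and 38 were tested. With Cadict set against Ctrl, 4 rose and 14 fell at the study's threshold, beside 20.7% and 27.1% of all tested genes. At 0.05, 9 rose and 23 fell, beside 40.6% and 47.1%. By library totals, 3 rose and 30 fell at 0.05, where the median log2 fold change over all tested genes was -1.08. The listed genes had a median log2 fold change of -0.68 with TMM. In Cu-Cys against Ctrl edgeR and DESeq2 each called 0 at the study's threshold, and edgeR called 2 higher and 12 lower at 0.05 (3 and 14 at an unadjusted p under 0.05). Of all tested genes, edgeR called 0.167% higher and 1.47% lower at the study's threshold, and 22.6% and 22.4% at 0.05. The shares by DESeq2 and at an unadjusted p are not given here.

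Named enzymes lay on both sides. Dhrs7b, a reductase of the ether lipid pathway, rose by a log2 of 1.29 ± 0.09 with TMM (adjusted p = 1.16e-09, edgeR's quasi-likelihood test, n = 3 per group; -0.03 on the TPM scale). Tysnd1, the protease that trims imported enzymes, fell from 12.6 ± 0.590 to 1.88 ± 0.563 CPM (log2 fold change -2.74 ± 0.15, adjusted p = 9.48e-11, edgeR), and Isoc1 fell from 32.4 ± 2.3 to 6.75 ± 1.42 CPM (adjusted p = 3.33e-11, edgeR). Catalase (Cat), which removes the hydrogen peroxide that the oxidases make, fell by a log2 of 0.56 ± 0.06 in Cadict against Ctrl (adjusted p = 2.17e-07, edgeR).

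Peroxisomes divide with factors shared with mitochondria. Mff, the membrane receptor for the fission GTPase, rose from 67.9 ± 1.79 to 156 ± 6.39 CPM (log2 fold change 1.20 ± 0.05, adjusted p = 4.2e-12, edgeR; -0.12 on the TPM scale). Dnm1l, the GTPase, and Fis1, an adaptor, were chosen after their values were seen. Their values are a description, with log2 fold changes of 0.62 ± 0.06 and 0.89 ± 0.10 with TMM, but -0.33 and -0.07 by library totals. All 3 lay above the all-gene median under the 6 scalings.

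**Figure D4:**
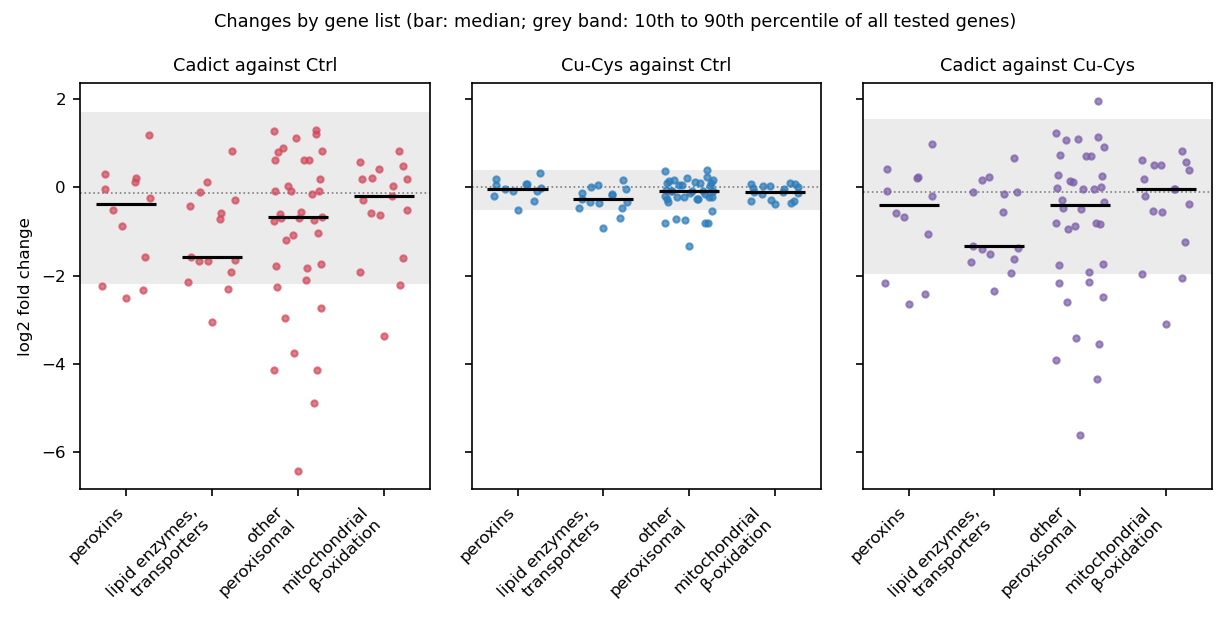
Log2 fold changes with TMM of the tested genes of 4 lists in the 3 comparisons; points are genes, bars are list medians, the grey band spans the 10th to 90th percentile and the dotted line the median of all tested genes. In Cadict against Ctrl the bars lie at -0.38 for peroxins, -1.58 for lipid enzymes and transporters, -0.68 for other peroxisomal genes and -0.19 for mitochondrial β-oxidation.

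Mitochondria carry out the β-oxidation of shorter chains with their own enzymes. Of 17 such genes, all tested, 0 rose and 4 fell at the study's threshold in Cadict against Ctrl (20.7% and 27.1% of all tested genes). At 0.05, 6 rose and 9 fell (40.6% and 47.1% of all tested genes). The median log2 fold change of the 17 was -0.19. The genes named next were picked as extremes of this list among those called at 0.05. Their low adjusted p-values follow from that choice and are a description. Cpt2, the inner carnitine acyltransferase, fell from 22.2 ± 1.58 to 2.13 ± 0.269 CPM (log2 fold change -3.38 ± 0.13, adjusted p = 1.53e-12, edgeR). Acads and Acadm, the dehydrogenases of short and medium chains, fell by a log2 of 2.2 ± 0.10 and 1.92 ± 0.07 (adjusted p = 1.01e-11 and 1.04e-12, edgeR). The highest values with TMM were those of Etfb (0.82 ± 0.13), Echs1 (0.58 ± 0.08) and Eci1 (0.47 ± 0.13), each of which was negative by library totals (-0.14, -0.37 and -0.48) and above the all-gene median under the 6 scalings. For Etfb, 44.8% of the 50-base stretches also occur in Gm45233.

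Genes of the PPAR family, nuclear receptors that pair with RXR and are known regulators of peroxisomal enzymes, were read from a list of 7. Of these, 4 were tested. In Cadict against Ctrl at 0.05, 1 rose and 3 fell, beside 40.6% and 47.1% of all tested genes. Ppara had 9, 11 and 10 counts in Ctrl and 1, 1 and 0 in Cadict libraries, and Ppara, Pparg and Ppargc1a did not pass the filter. Ppard rose from 34.1 ± 1.53 to 109 ± 7.84 CPM in Cadict cells (log2 fold change 1.68 ± 0.07, adjusted p = 2.4e-12, edgeR) and was 0.73 by library totals. Rxra and Rxrb fell by a log2 of 0.69 ± 0.08 and 0.85 ± 0.07 (adjusted p = 9.52e-07 and 1.5e-08, edgeR). Ppargc1b, a coactivator, fell in Cadict (log2 fold change -1.98 ± 0.18, adjusted p = 3.84e-08, edgeR) and rose in Cu-Cys against Ctrl (0.57 ± 0.11, adjusted p = 0.000585, edgeR). On the TPM scale its log2 fold change in Cadict against Ctrl was -0.93. Relative to the all-gene median it was -1.85 with TMM but 0.19 on the TPM scale, so its side of that median depended on the scaling.

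Promoter windows from RefSeq (build GRCm38.p6, 250 bases before to 50 after a start site) were found for 23 of the 28 genes, in 27 windows. They were searched on both strands, in letters alone, for the element on which PPAR and RXR pair and for common promoter motifs; none of the motifs overlaps another in its letters except that the paired element contains AGGTCA. The paired element, AGGTCA then any base then AGGTCA again, was in 0 of the 27 windows and in 0.0396% of all 32851. Its single copy AGGTCA was in 2 windows, those of Scp2 and Phyh, and in 16.3% of all. GGGCGG, the GC box, was in 20 windows and in 35.7% of all, and CCAAT was in 10 windows and in 37.4% of all. CACGTG, the E-box, was in the Gnpat window alone of the 27 and in 7.15% of all. The sequences upstream of the gene with the lowest log2 fold change with TMM in Cadict against Ctrl (Decr2), of the gene with the highest (Pex14) and around the only upstream AGGTCA (Scp2) are shown 5′ to 3′ on the gene's strand, with motif letters in capitals. Decr2 is chr17:26090165-26090284, Pex14 is chr4:149099844-149099963 and Scp2 is chr4:108118628-108118687, each on the minus strand.
Decr2: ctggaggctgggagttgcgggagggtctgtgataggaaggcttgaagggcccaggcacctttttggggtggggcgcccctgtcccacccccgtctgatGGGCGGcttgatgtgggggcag
Pex14: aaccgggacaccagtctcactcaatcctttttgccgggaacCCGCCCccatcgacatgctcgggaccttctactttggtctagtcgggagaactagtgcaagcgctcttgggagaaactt
Scp2: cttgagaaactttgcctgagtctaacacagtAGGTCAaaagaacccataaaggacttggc
The capitals mark GGGCGG in Decr2, the same box read on the opposite strand in Pex14, and AGGTCA in Scp2, which begins 109 bases before the start site. The GC box thus stands upstream of both Decr2 and Pex14. A match of letters is a description and shows no binding.

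Transcript length and base composition of the 2 lists are given as medians, and their part in the differences was not tested. The longest annotated transcript had a median of 2542.5 bases and 52.3% GC over the peroxins and of 2640 bases and 49.1% GC over the tested lipid genes. Over all tested genes with a transcript (96.5%), the medians were 3174 bases and 50.2% GC.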

How the data were processed

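RNA of MC38 cells was sequenced in 9 libraries, 3 per group. The deposited table held, per gene and library, expected counts, TPM and FPKM made by the authors. The submitters' notes name HISAT2 2.1.0, Bowtie2 2.3.4.3 and RSEM 1.3.1 with the builds GRCm39 and GRCh38.p13, without roles. Libraries were tied to groups through column names: CTL was read as Ctrl, CC as Cu-Cys (by initials) and CCGE as Cadict (by its components), and the last assignments were inferred from names alone. The labels and the study's text also differ on the control vehicle, extraction and instrument. A further 9 columns of size-factor counts and 12 of group averages were not used.

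The expected counts, as deposited, were rounded. TMM scaling, filterByExpr and the quasi-likelihood test of edgeR 4.0.16 (R 4.3.3) were applied to all 9 libraries in 1 model of 3 groups, with Benjamini-Hochberg adjustment over the 11949 genes that passed. The standard error is the absolute log2 fold change divided by the square root of F. The fit was tested on simulated data. Alternatives used DESeq2 1.42.0, and limma 3.58.1 on log2(TPM + 1), log2(FPKM + 1) and log2(FPKM + 0.1), scales that understate changes of low genes. All 28 genes are named. From the other peroxisomal and the mitochondrial lists, the 3 highest and 3 lowest called at 0.05 with a mean of at least 5 CPM are named, as are all tested PPAR genes and Cat. Some other genes that the rule names are not reported here. The members and lists were chosen with earlier results of these data known. Same-numbered replicates were checked for pairing: their deviations correlated at -0.143 to 0.135 over 9706 genes, so they were not treated as pairs. Exon overlaps and shared 50-base stretches were computed from GENCODE M21 (GRCm38), and promoters from RefSeq (GRCm38.p6), with Python 3.11.15. The E-box, CCAAT box and GC box were added to the search after the data were seen. Protein sequences were not analysed here.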

Additional observations from a re-analysis of the deposited data

How the results depend on the processing

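Every p-value rests on 3 libraries per group. At these depths the lowest tested member had 71 counts in a Ctrl, 66 in a Cu-Cys and 6 in a Cadict library, so the lowest genes are the least certain. The counts and medians that follow are those that moved, and the cause of each was not tested, except that a stricter filter leaves fewer genes. Shares of all tested genes called under these settings are not given here. In Cadict against Ctrl the all-gene median was -1.08 by library totals and -1.13 on TPM.

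In Cadict against Ctrl at the study's threshold, 0 of the 28 genes were called higher by library totals, TPM and FPKM with either pseudocount, and 20, 23, 19 and 20 were called lower with library totals, TPM, FPKM + 1 and FPKM + 0.1. At 0.05, 1, 0, 1 and 1 were called higher in the same order. Of the other peroxisomal genes, 0 were called higher at the study's threshold under all 4, 26 were called lower by library totals, 26 by TPM, 25 by FPKM + 0.1 and 9 with at least 10 counts in every library, and at 0.05 3, 0, 3 and 3 were called higher. The peroxin median was -0.26 with DESeq2 size factors, -1.33 by library totals, -0.31 with at least 10 counts, -0.46 without a filter, -0.28 with the DESeq2 Wald test, -1.48 on TPM, -1.12 on FPKM + 1 and -1.30 on FPKM + 0.1. The lipid median was -2.53 by library totals, -1.42 with the DESeq2 Wald test, -1.94 on TPM and -2.37 on FPKM + 0.1. The sign reversed for Pex5 (-0.65, -0.95, -0.61 and -0.66), Pex7 (-0.75, -1.04, -0.70 and -0.76) and Pecr (-0.13, -0.42, -0.089 and -0.095) with library totals, TPM, FPKM + 1 and FPKM + 0.1, and for Pex14 on TPM (-0.13). Of the genes not called, Pex16 (0.12 with TMM) was at -0.83, -0.98, -0.64 and -0.82 and Agps (0.13) at -0.82, -1.13, -0.79 and -0.83 in the same order, and Pex19 and Abcd4 (-0.03 and -0.10) were at 0.09 and 0.02 with DESeq2 size factors.

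In Cu-Cys against Ctrl at 0.05, 2 of the 28 were called higher with DESeq2 size factors and 0 by library totals, TPM and both FPKM settings. Other peroxisomal genes called higher were 0 on TPM and 1 on each FPKM setting. On TPM the peroxin median was -0.17 and the lipid median -0.39.

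In Cadict against Cu-Cys at the study's threshold, 1 was called higher with DESeq2 size factors and 1 with its Wald test, and 20 were called lower on TPM and 19 on FPKM + 0.1. At 0.05, 0 were called higher by library totals, TPM and both FPKM settings and 2 without a filter, and 26, 27, 26 and 26 were called lower. Of the other peroxisomal genes, 0 were called higher at the study's threshold by those 4 settings, 21 were called lower by library totals, 24 on TPM, 21 on FPKM + 0.1 and 6 with at least 10 counts. At 0.05, 4, 1, 4 and 4 were called higher, and 33, 32 and 32 lower on TPM and the FPKM settings. The peroxin median was -0.30 with DESeq2 size factors, -1.28 by library totals, -0.25 with at least 10 counts, -0.49 without a filter, -1.27 on TPM, -0.975 on FPKM + 1 and -1.24 on FPKM + 0.1. The lipid median was -2.21, -1.64 and -1.98 by library totals, TPM and FPKM + 0.1. In the order library totals, TPM, FPKM + 1 and FPKM + 0.1, the sign reversed for Pex5 (-0.66, -0.89, -0.61 and -0.66), Pex7 (-0.67, -0.88, -0.61 and -0.66), Pex16 (-0.46, -0.60, -0.35 and -0.46), Agps (-0.72, -0.96, -0.69 and -0.72) and Pecr (-0.23, -0.44, -0.17 and -0.18), and for Pex14 on TPM (-0.18).

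Leaving out 1 library at a time gave 0 to 1 members called higher in Cu-Cys against Ctrl at 0.05 (0 without Ctrl replicate 3 or Cu-Cys replicate 1), 2 to 5 other peroxisomal genes called higher there (5 without Cadict replicate 2), and 0 to 1 members called higher in Cadict against Cu-Cys at the study's threshold (1 without Cu-Cys replicate 1 or Cadict replicate 3). With the replicate number as a block, 4 members were called higher and 19 lower in Cadict against Ctrl at 0.05, 1 and 11 in Cu-Cys against Ctrl, and 6 and 15 in Cadict against Cu-Cys. At the study's threshold the replicate block gave 1 higher and 12 lower for Cadict set against Ctrl, and 0 and 12 for Cadict set against Cu-Cys. The deviations of same-numbered samples did not correlate above 0.1 in every pair. The labels give only the number, so whether such samples shared a culture, day or batch cannot be told.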
